A study of Salmo trutta with 45 samples.

Results

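The livers described here came from 18 of the 45 juvenile female brown trout (*Salmo trutta*) of the series, the 18 that lived in water with Roundup. Roundup is a weed killer sold as a concentrate of glyphosate with further ingredients, and the question was whether transcript levels followed the dose among exposed fish. All fish were 6 months old, came from 1 fish farm and were sampled after 14 days in a flow-through system, and each fish gave 1 RNA-seq library of its own. The low dose (LR) was 0.01 mg/L, the middle dose (MR) 0.5 mg/L and the high dose (HR) 10 mg/L, each given to 6 fish and expressed as the acid equivalent of glyphosate. A further 12 fish in clean water, at 0 mg/L, are quoted as a baseline and entered none of the main tests. An alternative fit that included them is named where it is used. Each treatment was housed in 2 tanks. The labels do not name the tank of a fish, so tank and dose cannot be told apart. The doses are nominal, the trout are of farmed stock with no genotype given, and livers were whole tissue.

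Glyphosate stops plants and microbes from making aromatic amino acids by blocking an enzyme that animals lack, so effects in fish come by other routes. The liver is where a fish clears foreign compounds, makes plasma proteins, fatty acids and sterols, and stores glycogen, and it also holds resident macrophages and collagen-making stellate cells. A response that grows with dose is a common criterion in toxicology for tying an effect to a compound, and a response that is largest at a middle dose is called non-monotonic.

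Counts were joined by transcript over the 3 Roundup tables, and 60151 of 65152 transcripts stood in all 3. Reads on these transcripts had medians of 16577072 in LR fish (13246666 to 33249632), 18465870 in MR fish (11581569 to 22178837) and 17882196 in HR fish (14835341 to 23713073), so depth overlapped across doses. Levels are given as CPM, the reads of a transcript scaled to a common library size. One fish, MR fish 1, stood apart. Its mean departure from the median of its dose was 0.816 on the log2 scale, against 0.379 to 0.597 in the other 17 fish. It had 1433 transcripts at 0, against 52 to 338 in the others. It was also the exposed fish with the fewest reads, 11581569, and the part of depth in these zeros was not tested. Results that rest on MR fish 1 are given with and without it.

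No transcript passed the test for a dose trend. The slope is the change in log2 level per 10-fold rise in dose, and LR and HR lie 3 such steps apart. Of 60146 transcripts tested with edgeR's quasi-likelihood test, 0 (0.0%) had a slope different from 0 at a false discovery rate (FDR) under 0.1. At an unadjusted p under 0.05 there were 1645 (2.74%), of which 817 (1.36%) had a positive slope and 828 (1.38%) a negative one. DESeq2 called 1 transcript and edgeR's likelihood ratio test called 1, the same one, and limma-voom called 0. The smallest unadjusted p was 0.000114, and its adjusted p by the quasi-likelihood test was 1.0.

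Few transcripts separated the doses fish by fish. Every HR fish lay above every LR fish in 36 transcripts (0.0599%) and below in 41 (0.0682%). No transcript had its 3 doses fully apart in dose order. The slopes centred on 0.00042, with the middle 90% between -0.149 and 0.167. The median half-width of the 95% interval was 0.199 per 10-fold step, so for a typical transcript a slope smaller than that could not be told from 0, even before adjustment.

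The transcripts nearest to a rising trend included enzymes, a transporter and regulators, and none of them passed the test. They are the 8 genes with the smallest p among those with a positive slope. PSMD10, which encodes gankyrin, an assembly chaperone of the proteasome cap, had 0.279, 0.712 and 0.955 CPM in LR livers (lowest, median and highest), 0.968, 1.52 and 1.9 CPM in MR livers and 1.19, 1.7 and 2.1 CPM in HR livers. Every MR and HR fish lay above every LR fish, while controls, at 0.334 to 1.88 CPM, overlapped all 3 doses. Its slope was 0.41 ± 0.09 (SE, 95% interval 0.23 to 0.59), with an unadjusted exact permutation p of 9.81e-05, and it rests on 4 to 42 reads per fish.

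SLC13A5, a liver citrate importer, had 0.165, 0.352 and 1.12 CPM in LR livers, 0.722, 1.54 and 2.06 CPM in MR livers and 0.792, 1.65 and 3.52 CPM in HR livers. The step lay between LR and MR, and 4 of 6 HR fish exceeded all LR fish. Its slope was 0.59 ± 0.16 (SE). ID1, a target of bone morphogenetic protein signalling that blocks other transcription factors, had 4.11, 4.74 and 5.02 CPM in LR livers, 3.93, 5.28 and 6.32 CPM in MR livers and 5.24, 7.14 and 7.97 CPM in HR livers. All HR fish exceeded all LR fish, but control livers reached still higher, with a median of 8.86 and a range of 4.41 to 12.9 CPM. The slope of ID1 was 0.17 ± 0.05 (SE, exact permutation p = 0.000979, unadjusted).

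LUM, the collagen-binding proteoglycan lumican, had 1.05, 1.53 and 2.36 CPM in LR livers, 0.793, 1.42 and 2.51 CPM in MR livers and 2.13, 3.3 and 7.48 CPM in HR livers. Among exposed fish only the highest dose stood off, with 5 of 6 HR fish above all LR fish and a slope of 0.42 ± 0.12 (SE). Controls of LUM, at 0.442, 2.84 and 5.63 CPM, overlapped all 3 doses. By the medians, controls were nearer to HR than to LR or MR livers. The other 4 genes were TCN2, a vitamin B12 carrier, DENND2D, PYROXD2 and PCNP, with slopes of 0.32, 0.33, 0.28 and 0.22. The slope of PCNP was -0.05 when all transcripts of its component were summed, and 6 of its 11 transcripts had a positive slope. Controls of each of these 4 genes overlapped both LR and HR fish.

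**Figure D1:**
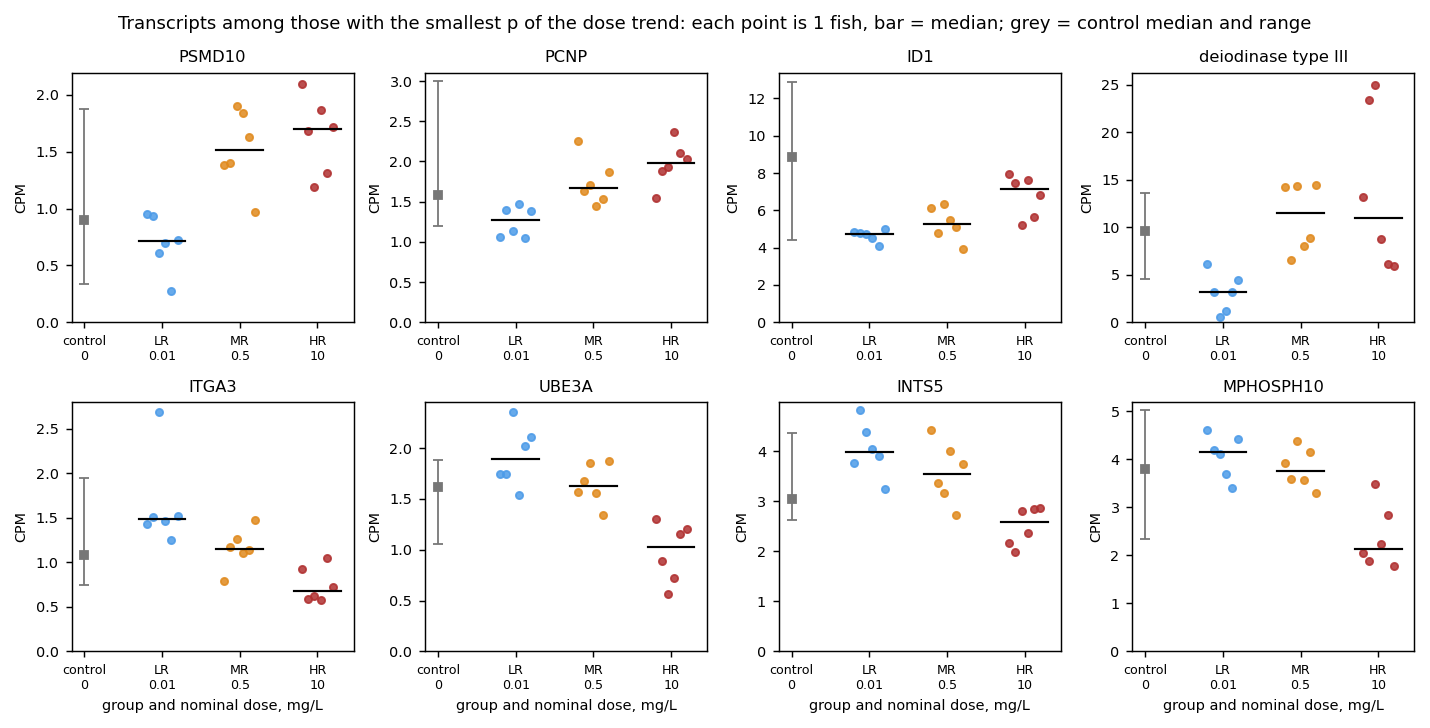
Level of 7 genes among those with the smallest p of the dose trend, and of the deiodinase type III transcript, in CPM on linear axes against the group and its nominal dose in mg/L. Each point is 1 LR, MR or HR fish, the black bar is the median of its dose, and the grey square and line are the median and range of the 12 controls. For PSMD10 all HR fish lie above all LR fish, and for ITGA3, UBE3A and INTS5 all HR fish lie below all LR fish.

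One transcript of deiodinase type III, the enzyme that inactivates thyroid hormone, was the single transcript that other tests called. It has no gene symbol in the annotation and was chosen after its values were seen. It had 0.606, 3.17 and 6.1 CPM in LR livers, 6.58, 11.5 and 14.4 CPM in MR livers and 5.88, 11.0 and 25 CPM in HR livers. Every MR fish lay above every LR fish and 5 of 6 HR fish did, so that the step fell between LR and MR. Controls, at 4.58, 9.56 and 13.6 CPM, lay in the range of MR and HR, so LR was the group with low values. The slope was 0.72 ± 0.16 (SE, 95% interval 0.40 to 1.05; exact permutation p = 0.000483, unadjusted), and it lay between 0.64 and 0.83 when each fish was left out in turn. The adjusted p was 0.0623 by the likelihood ratio test and 0.069 by DESeq2, but 1.0 by the quasi-likelihood test. The other transcript of the same component had a slope of 0.37 ± 0.33 (SE), whose unadjusted p by edgeR was 0.268.

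Among genes with a negative slope, the smallest p belonged to an adhesion receptor, a ubiquitin ligase and parts of the RNA processing machinery, again without passing the test. ITGA3, an integrin that binds laminin, had 1.25, 1.49 and 2.69 CPM in LR livers, 0.787, 1.15 and 1.48 CPM in MR livers and 0.575, 0.676 and 1.05 CPM in HR livers. All HR fish lay below all LR fish, with MR between. Its slope was -0.37 ± 0.08 (SE, 95% interval -0.53 to -0.2; exact permutation p = 2.68e-05, unadjusted), but 0.02 when the transcripts of its component were summed. Of 8 ITGA3 transcripts, 5 had a positive slope.

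UBE3A, a ligase that marks proteins for the proteasome, had 1.54, 1.89 and 2.36 CPM in LR livers, 1.34, 1.63 and 1.87 CPM in MR livers and 0.562, 1.03 and 1.3 CPM in HR livers. HR and LR fish did not overlap, and 0 of its 6 transcripts had a positive slope. The slope was -0.31 ± 0.07 (SE, exact permutation p = 4.76e-05, unadjusted). INTS5, a subunit of the Integrator complex that ends transcription of small nuclear RNAs, had 3.24, 3.98 and 4.83 CPM in LR livers, 2.72, 3.55 and 4.43 CPM in MR livers and 1.98, 2.59 and 2.86 CPM in HR livers. All HR fish of INTS5 also lay below all LR fish, with a slope of -0.22 ± 0.05 (SE). MPHOSPH10, which takes part in ribosomal RNA processing, had medians of 4.15, 3.76 and 2.13 CPM in LR, MR and HR livers and a slope of -0.25 ± 0.06 (SE).

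OGG1, the glycosylase that removes oxidised guanine from DNA, had 0.977, 1.03 and 1.41 CPM in LR livers, 0.492, 0.605 and 1.1 CPM in MR livers and 0.0719, 0.434 and 0.998 CPM in HR livers. In 5 of 6 HR fish it was below all LR fish, and its slope was -0.41 ± 0.12 (SE). Controls of OGG1, at 0.276, 0.849 and 1.35 CPM, overlapped all 3 doses. The transcript had 14 to 31 reads per LR fish, 5 to 17 per MR fish and 1 to 16 per HR fish. MERTK, a receptor with which macrophages take up dying cells, had medians of 2.4, 2.2 and 1.1 CPM in LR, MR and HR livers and a slope of -0.32 ± 0.08 (SE). FNDC3A had a slope of -0.3, with all HR fish below all LR fish. Controls of FNDC3A, at 0.721, 1.12 and 1.55 CPM, lay close to HR livers, at 0.676, 1.11 and 1.54 CPM. All LR fish, at 1.85 to 2.27 CPM, lay above all controls, so LR was the group that stood off.

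The gene lists showed few members with a trend. Genes of a list share fish and often a regulator, so their counts are descriptions. Of 8288 genes with a symbol, each given by its most abundant transcript, 80 had a positive and 112 a negative slope at an unadjusted p under 0.05, together 2.32%, and 48.7% of all slopes were positive. The sterol synthesis list covers the pathway from acetyl-CoA to cholesterol and also holds the sterol sensor NR1H3. It had 3 of 26 genes with a negative slope at that threshold and 0 with a positive one. The median slope of the 26 was -0.089, against -0.00207 over all genes, and 5 of 26 slopes were positive. FDFT1, which makes squalene, had 3.63, 13.8 and 54.1 CPM in LR livers, 5.31, 9.92 and 36.5 CPM in MR livers and 3.31, 6.75 and 13.1 CPM in HR livers. Doses overlapped widely for FDFT1, with a slope of -0.45 ± 0.18 (SE) and an exact permutation p of 0.101. Control livers had 2.93, 5.24 and 10.3 CPM of FDFT1, by the medians nearer to HR than to LR livers. SQLE and MVD, the other members past that threshold, had slopes of -0.46 and -0.28, with exact permutation p of 0.347 and 0.134. The count of 3 became 0 without LR fish 2, 0 without HR fish 2 and 9 without LR fish 4, and it was 1 without LR fish 6, HR fish 3 or HR fish 4.

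Plasma protein genes made by hepatocytes had small negative slopes. Of 14 hepatocyte markers 1 had a positive slope and 13 did not, with a median of -0.04, and of 22 coagulation genes 2 had a positive slope. APOA1, the main protein of high-density lipoprotein, had 7150.0, 8040.0 and 9290.0 CPM in LR livers, 5230.0, 7030.0 and 10300.0 CPM in MR livers and 5680.0, 6510.0 and 7000.0 CPM in HR livers. All HR fish were below all LR fish for APOA1, and its slope was -0.11 ± 0.05 (SE, exact permutation p = 0.014, unadjusted). The markers summed to medians of 14800.0 CPM in LR, 13500.0 CPM in MR and 12500.0 CPM in HR livers, and control livers had a median of 12200.0 CPM. By these medians HR livers were nearer to the controls than LR livers were. The ranges overlapped, at 13100.0 to 16600.0 CPM in LR livers and 11400.0 to 15600.0 CPM in control livers. APOA1 was the most abundant of the markers and weighs most in the sum.

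Endoplasmic reticulum chaperones, which fold secreted proteins, had 22 of 26 positive slopes with a median of 0.0472 and 0 at an unadjusted p under 0.05. That count was 11 without HR fish 3, 12 without LR fish 1 or HR fish 1, and 13 without LR fish 2. Without LR fish 3 it was 24, with 4 genes at an unadjusted p under 0.05 and a median of 0.16. Genes of NF-kappa B and TNF receptor signalling had 21 of 25 positive slopes, and 14 without HR fish 3. Among insulin and IGF genes, IGFBP6, a binding protein for insulin-like growth factors, had a slope of 0.2 and IGFBP2, another such protein, one of -0.11. FOXO1, the transcription factor that insulin switches off, had a slope of 0.29. PFKL, the liver form of the glycolytic enzyme phosphofructokinase, had a slope of 0.23, and NFIL3, a repressor in the circadian clock, one of -0.22. Cytochrome P450 (9 genes), fatty acid oxidation (27), amino acid handling (35), cell cycle (33), complement (18) and riboflavin (4) had 0 genes with a slope at an unadjusted p under 0.05.

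The middle dose was then set against the outer ones. The middle contrast is the log2 level at MR minus the mean of LR and HR, and it is positive where MR was higher. By the quasi-likelihood test 0 of 60146 transcripts (0.0%) passed at an FDR under 0.1. At an unadjusted p under 0.05 there were 2267 (3.77%), with 1112 (1.85%) positive and 1155 (1.92%) negative. DESeq2 called 6 transcripts, the likelihood ratio test called 8 and limma-voom called 0. With controls also in the fit, to add to the estimate of the spread, edgeR called 2. Of these 2, the unannotated comp121549_c6_seq11 was also called by the likelihood ratio test. It had 58.7 CPM in MR fish 1 and 0.742 to 1.49 CPM in the other MR fish. Its contrast by the quasi-likelihood fit was 3.56 with MR fish 1 and 0.29 without it. The median half-width of the 95% interval was 0.52, wider than that of the slope.

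The same fit tested for any difference among the 3 doses and called 0 of 60146 transcripts (0.0%), with 1777 (2.95%) at an unadjusted p under 0.05. DESeq2 called 3 and the likelihood ratio test called 8. By group means, MR was the lowest dose in 35.8% of transcripts and the highest in 33.3%. The level increased with dose in 15.5% and decreased with dose in 15.3%. A random order of the 3 doses would put MR lowest in about 33.3% and highest in about 33.3%. These shares therefore do not show that MR stood apart.

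Collagen genes were among those with the lowest p, with lower levels in MR livers. COL16A1, a collagen that lies beside larger fibrils, had 0.148, 0.407 and 0.452 CPM in MR livers, against 0.689, 1.05 and 1.41 CPM in LR livers and 0.94, 1.12 and 2.13 CPM in HR livers. All 6 MR fish lay below all 12 other exposed fish, which held for 6 transcripts of all tested (0.00998%), and the reverse, MR above all others, for 0. The middle contrast of COL16A1 was -1.71 ± 0.28 (SE, 95% interval -2.29 to -1.14; exact permutation p = 5.39e-05, unadjusted) and stayed between -1.80 and -1.55 when each fish was left out. Its adjusted p was 0.292 by the quasi-likelihood test, 0.00451 by DESeq2, 0.000911 by the likelihood ratio test and 0.0295 with controls in the fit. The transcript had 3 to 9 reads per MR fish, 13 to 30 per LR fish and 14 to 41 per HR fish.

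The fibril-forming collagen I showed the same direction at far higher counts. For COL1A1, the most abundant transcript had 24.9, 43.1 and 56.4 CPM in MR livers, against 43.1, 68.5 and 155.0 CPM in LR livers and 54.2, 62.9 and 74.5 CPM in HR livers. MR medians were lower, with overlap between single fish, and the middle contrast was -0.77 ± 0.23 (SE, exact permutation p = 0.00205, unadjusted). COL6A2, a chain of the microfibrillar collagen VI, had 3.62, 5.53 and 7.87 CPM in MR livers, against 5.76, 9.47 and 20.3 CPM in LR livers and 6.76, 10.1 and 12.5 CPM in HR livers. Its middle contrast was -0.86 ± 0.23 (SE, exact permutation p = 0.00145, unadjusted).

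Of 35 genes for collagen and matrix, 9 had a negative middle contrast at an unadjusted p under 0.05 and 1 a positive one, against 121 negative and 197 positive of all 8288 genes. The median over the list was -0.205, against 0.0389 over all genes. Among the 16 collagen chains 12 were negative, 6 of them at that threshold, with a median of -0.4. The mean log2 level of the chains, set against the mean of the 18 exposed fish, had a median of -0.12 in MR livers (-0.53 to 0.04), against 0.05 in LR livers (-0.4 to 0.67) and 0.1 in HR livers (-0.11 to 0.29). Control livers had a median of 0.08. The 1 positive gene, MMP19, a protease that cuts matrix proteins, had 97.7 CPM in MR fish 1, and its contrast of 2.46 was 0.13 without that fish. The transcript with the symbol PDGFRA, whose zebrafish match is the related receptor for platelet derived growth factor named beta, had a middle contrast of -0.93 (exact permutation p = 0.00264, unadjusted). The 13 endothelial and stellate markers had a median contrast of -0.271, and 2 of them were positive. Their summed level, led by ACTA2 and TAGLN, did not show this, with medians of 294.0 CPM in MR livers, against 265.0 CPM in LR and 294.0 CPM in HR livers and a contrast of the sum of 0.02. The sum of the 35 collagen and matrix genes, led by TGFBI and FN1, had medians of 899.0 CPM in MR livers, against 843.0 CPM in LR and 918.0 CPM in HR livers, and a contrast of -0.01. The part of cell numbers in the collagen result was not tested.

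Complement C1q and CD74, genes of macrophages, also had lower medians at the middle dose. All 3 chains of C1q, which starts the classical complement pathway and is made by macrophages, had a negative middle contrast at an unadjusted p under 0.05. C1QC had 2.62, 3.32 and 4.84 CPM in MR livers, against 3.87, 6.32 and 9.13 CPM in LR livers and 3.85, 5.32 and 7.54 CPM in HR livers. Its contrast was -0.78 ± 0.2 (SE, exact permutation p = 0.00135, unadjusted), with overlap between doses. C1QB and C1QA had contrasts of -0.6 and -0.55. CD74, the chaperone of MHC class II in antigen-presenting cells, had 63.1, 77.1 and 122.0 CPM in MR livers, against 73.1, 107.0 and 141.0 CPM in LR livers and 87.3, 104.0 and 152.0 CPM in HR livers. Its contrast was -0.44 ± 0.17 (SE).

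The 9 immune cell markers all had a negative contrast, with a median of -0.224 and 1 at an unadjusted p under 0.05. Of all 8288 genes, 57.4% had a positive contrast. With each fish left out in turn, the median of the 9 ran from -0.38 to -0.09, and 0 to 2 of them were positive. The summed level of the 9 markers was 81.0, 99.1 and 164.0 CPM in MR livers. It was 94.4, 132.0 and 182.0 CPM in LR livers and 107.0, 139.0 and 198.0 CPM in HR livers. Control livers had 87.5, 133.0 and 223.0 CPM. Of the 9 markers, 0 were at 0 in all exposed fish. In whole liver, fewer cells of a type and less RNA per cell cannot be told apart. The rest of complement, mostly made by hepatocytes, added 1 gene, CFD, to the count, so that 4 of 18 complement genes had a negative contrast at that threshold. This count was 1 without MR fish 3, 2 without LR fish 5, MR fish 2 or MR fish 5, and 6 without MR fish 4.

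**Figure D2:**
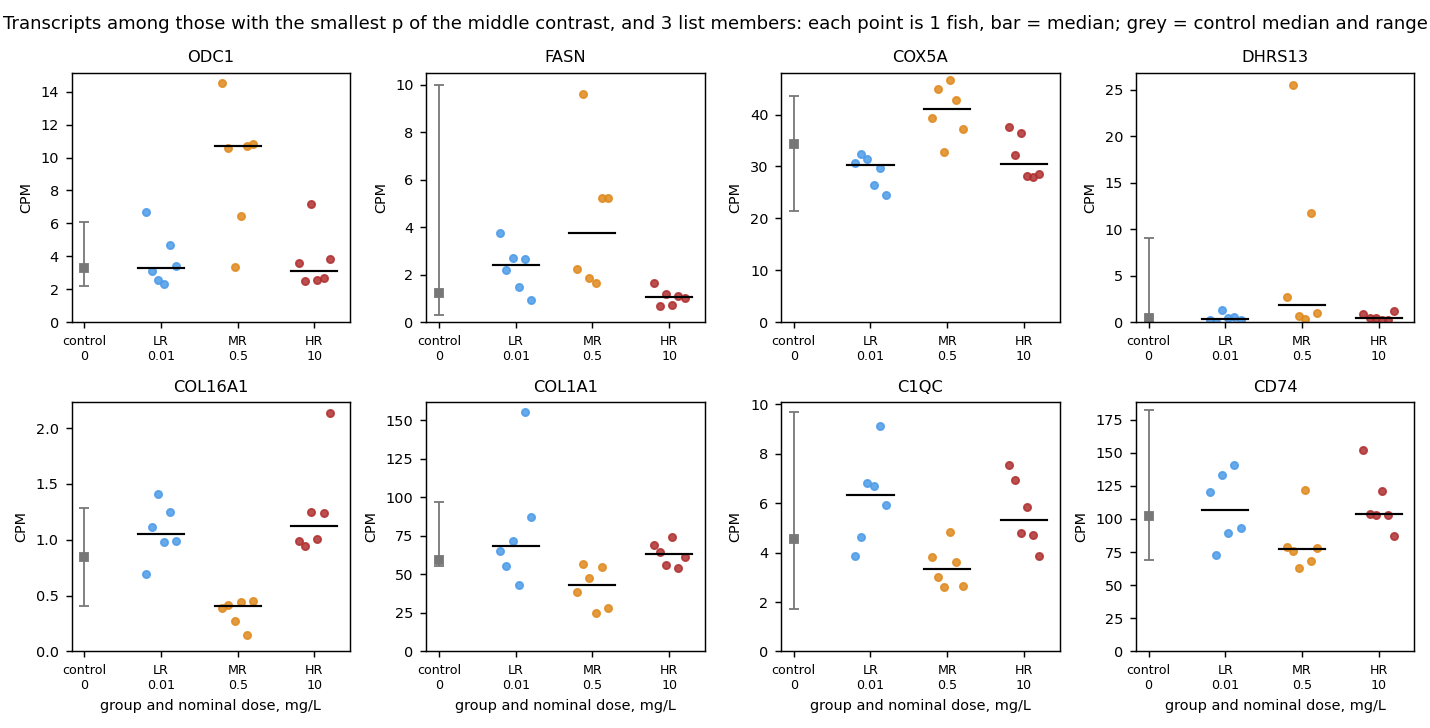
Level of genes with a small p of the middle contrast, and of COL1A1, C1QC and CD74 from the gene lists, in CPM on linear axes against the group and its nominal dose in mg/L. Each point is 1 LR, MR or HR fish, the black bar is the median of its dose, and the grey square and line are the median and range of the 12 controls. COL16A1 is lower in all 6 MR fish than in the 12 other exposed fish, 4 of 6 MR fish exceed all LR and HR fish for ODC1, and FASN is shown by its transcript with the smallest p, at a median of 3.74 CPM in MR livers.

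ODC1 and some genes of fatty acid synthesis had their highest medians at the middle dose. ODC1, the rate-limiting enzyme of polyamine synthesis, had 3.38, 10.7 and 14.5 CPM in MR livers, against 2.3, 3.27 and 6.68 CPM in LR livers and 2.52, 3.12 and 7.18 CPM in HR livers. In 4 of 6 MR fish it exceeded all LR and HR fish. Control livers had 2.21, 3.3 and 6.07 CPM, close to LR and HR. The middle contrast was 1.31 ± 0.28 (SE, 95% interval 0.73 to 1.9; exact permutation p = 0.00119, unadjusted). Its adjusted p was 0.0345 by the likelihood ratio test and 0.0971 by DESeq2, but ODC1 did not pass by the quasi-likelihood test or by limma-voom.

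FASN, the synthase that builds palmitate, had 1.39, 4.64 and 12.9 CPM in MR livers, against 1.02, 1.69 and 5.25 CPM in LR livers and 0.36, 0.913 and 3.43 CPM in HR livers by its most abundant transcript. The contrast was 1.7 ± 0.47 (SE, exact permutation p = 0.0181, unadjusted), and all 11 FASN transcripts had a positive contrast. ACACA, which makes the malonyl-CoA that FASN uses, had 5.9, 25.2 and 70.7 CPM in MR livers, against 3.0, 7.73 and 42.6 CPM in LR livers and 5.75, 8.15 and 15.8 CPM in HR livers. ELOVL6, which lengthens palmitate, had 19.1, 40.8 and 82.7 CPM in MR livers, against 3.7, 15.7 and 54.7 CPM in LR livers and 10.9, 15.3 and 28.1 CPM in HR livers. Medians at MR were higher for both, while single fish overlapped, with contrasts of 1.59 ± 0.53 (SE, exact permutation p = 0.0697) for ACACA and 1.18 ± 0.43 (SE, exact permutation p = 0.024) for ELOVL6, both unadjusted. Control livers spread as widely, over 0.45 to 13.5 CPM for FASN, 1.8 to 71.8 CPM for ACACA and 3.45 to 64.4 CPM for ELOVL6. Their medians were 1.7, 9.45 and 19.4 CPM. By edgeR, ELOVL6 kept an unadjusted p under 0.05 in 17 of the 18 fits with 1 fish left out, and had a p of 0.06 without MR fish 5.

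Of 21 genes for fatty acid synthesis and storage, 5 had a positive contrast at an unadjusted p under 0.05 and 0 a negative one. Of all 8288 genes, 197 had a positive and 121 a negative contrast at that threshold. The 5 genes were FASN, ACACA, ELOVL6, SCD, the desaturase that makes oleate, and PLIN2, a coat protein of lipid droplets. The median over the list was 0.409, against 0.0389 over all genes, and 14 of 21 were positive, against 57.4% of all genes. With each fish left out in turn, the count of 5 ran from 4 to 8 and the median from 0.15 to 0.45. Without MR fish 3 the count was 8 and the median 0.15. PLIN2 rested on 1 fish, with a contrast of 1.42, of 0.13 without MR fish 1 and an exact permutation p of 0.451. DHRS13, a short-chain dehydrogenase, had the smallest p among positive contrasts, at 0.334, 1.86 and 25.5 CPM in MR livers, against 0.0, 0.376 and 1.28 CPM in LR livers and 0.216, 0.497 and 1.2 CPM in HR livers. In 3 of 6 MR fish it exceeded all LR and HR fish, and controls reached 9.05 CPM. Only 4 of the 10 DHRS13 transcripts had a positive contrast.

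Subunits of the mitochondrial respiratory chain had slightly higher levels at the middle dose, nearly without exception. Of 68 genes for the chain and ATP synthase, 66 (97.1%) had a positive contrast, against 57.4% of all 8288 genes, and 20 (29.4%) did so at an unadjusted p under 0.05, against 3.84% of all genes in either direction. The median contrast was 0.248. The genes past that threshold were 8 of 34 in complex I, 0 of 3 in complex II, 1 of 8 in complex III, 4 of 11 in complex IV and 7 of 12 in ATP synthase. COX5A, a subunit of complex IV, had 32.7, 41.1 and 46.7 CPM in MR livers, against 24.5, 30.2 and 32.4 CPM in LR livers and 28.0, 30.4 and 37.6 CPM in HR livers. All MR fish lay above all LR fish and 4 of 6 above all HR fish as well. Its contrast was 0.42 ± 0.11 (SE, 95% interval 0.18 to 0.65; exact permutation p = 0.000377, unadjusted).

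By fish, the mean log2 level of the list had a median of 0.22 in MR livers (-0.07 to 0.33), against -0.11 in LR livers (-0.29 to 0.02) and -0.09 in HR livers (-0.25 to 0.17). In 4 of 6 MR fish it exceeded all LR and HR fish, while controls ranged over -0.32 to 0.3 with a median of 0.05. The count of 20 became 8 when MR fish 5 was left out and 33 when MR fish 1 was, it was 12 without MR fish 2 and without MR fish 4, and 65 to 67 genes stayed positive. It was 5 by the likelihood ratio test, 25 by DESeq2 and 40 without MR fish 1 and the most divergent fish of LR and HR.

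**Figure D3:**
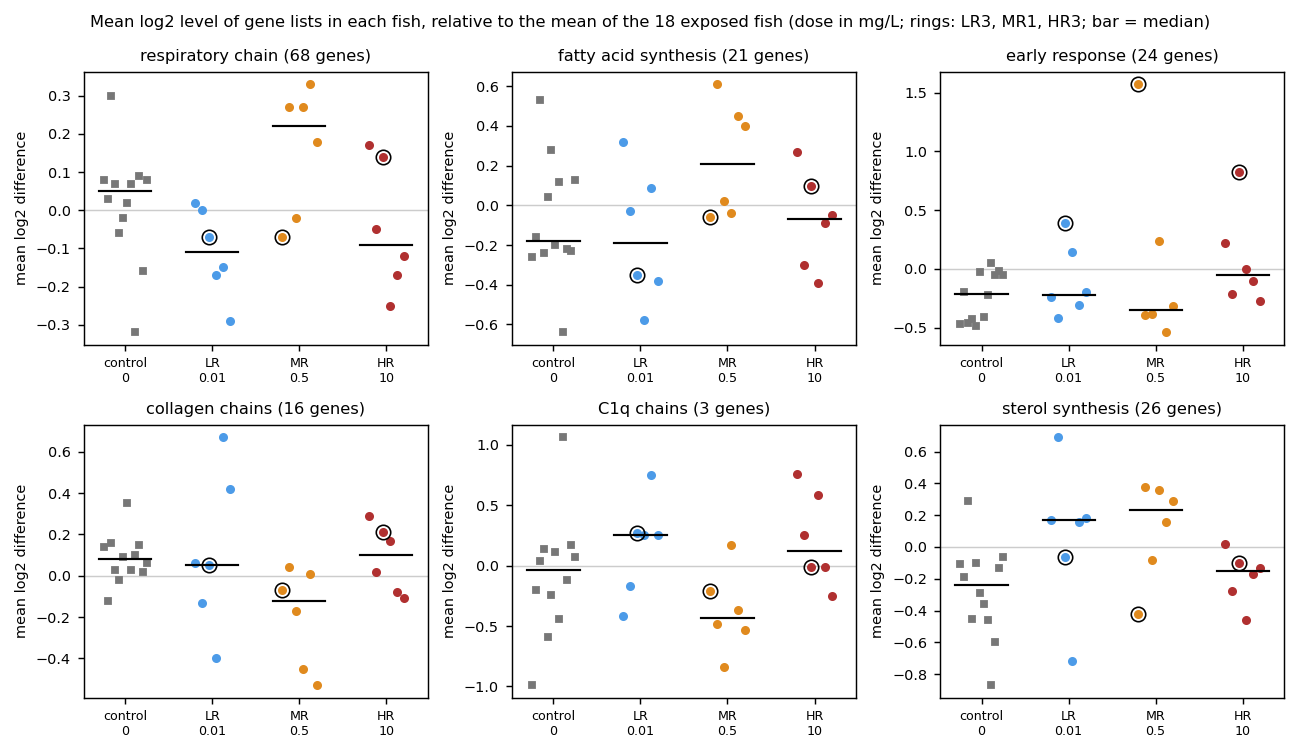
Mean log2 level of 6 groups of genes in each fish, as a difference from the mean of the 18 exposed fish, against the group and its nominal dose in mg/L. Points are single LR, MR and HR fish, grey squares single controls, bars medians, and rings mark LR fish 3, MR fish 1 and HR fish 3, the most divergent of each dose. The respiratory chain has its highest median, 0.22, at MR, and the early response list has MR fish 1 at 1.57 with the MR median at -0.35.

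Protein turnover and translation showed the same sign with smaller contrasts. All 31 proteasome genes had a positive contrast with a median of 0.219, yet 1, PSMB2, had an unadjusted p under 0.05. That count ran from 0 to 6 with each fish left out, the highest without HR fish 3, and was 12 without the most divergent fish of each dose. The mitochondrial ribosome had 58 of 69 positive and 6 at that threshold, among them MRPL37 with a contrast of 0.44, and this count was 2 without MR fish 5 and 3 without MR fish 2 or HR fish 5. All 72 genes of the cytosolic ribosome were positive with a median of 0.0947 and 0 at the threshold, but only 15 were positive without MR fish 4, where the median was -0.03. The count of positive genes thus depended on 1 fish. Antioxidant genes had 25 of 29 positive, with PRDX1, GSTP1 and GCLM at the threshold, a count that ran from 1 to 5 with each fish left out. PRDX1, a peroxiredoxin that breaks down peroxides, had 108.0, 133.0 and 158.0 CPM in MR livers, against 79.7, 108.0 and 125.0 CPM in LR livers and 75.7, 105.0 and 122.0 CPM in HR livers. Its contrast was 0.36 (exact permutation p = 0.00695, unadjusted). GSTP1, which joins glutathione to toxicants, had a contrast of 0.37 and GCLM, part of the enzyme that starts glutathione synthesis, one of 0.61.

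**Figure D4:**
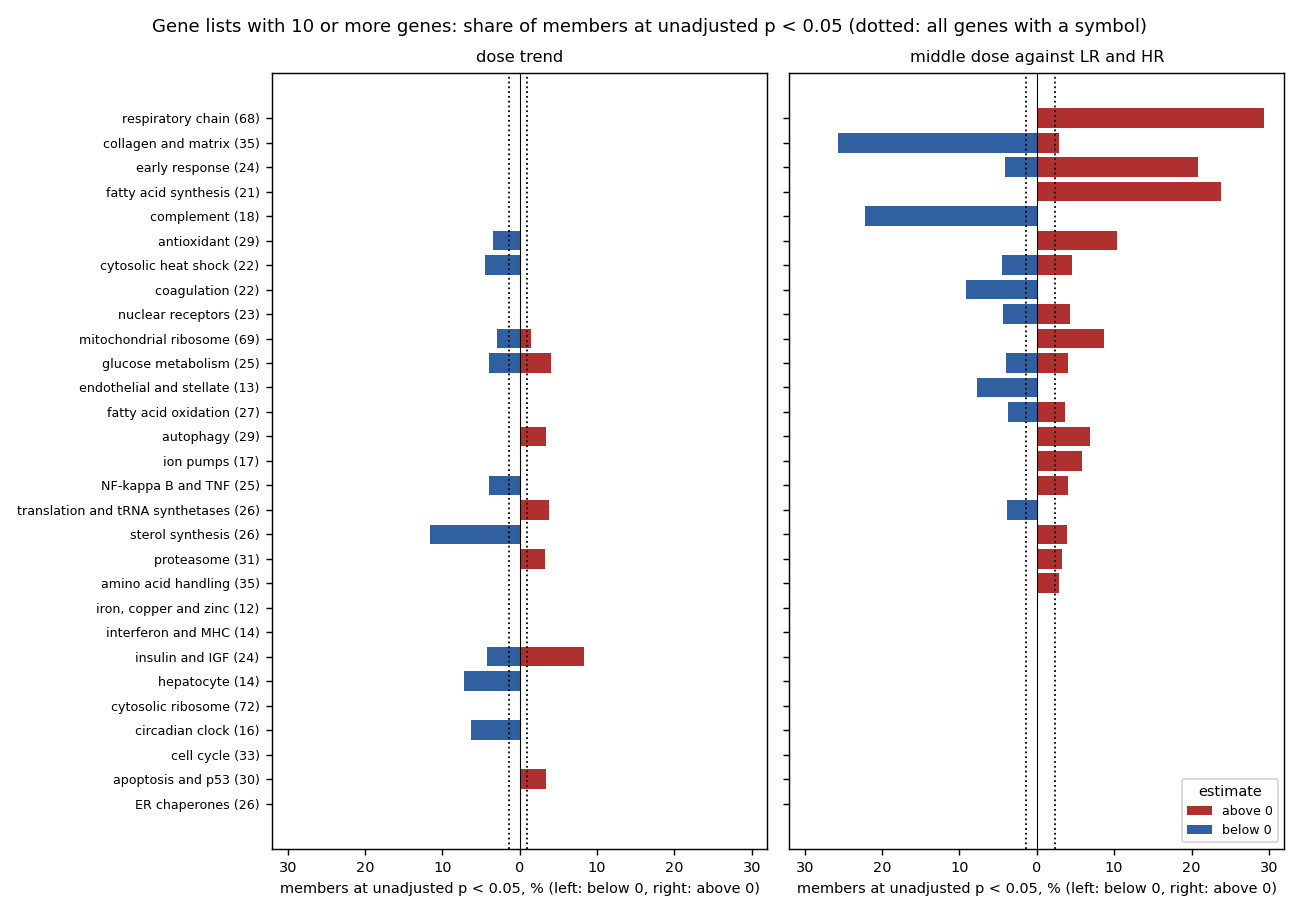
Share of members with an unadjusted p under 0.05, in percent, for gene lists of 10 or more genes (number of genes in brackets), with the dose trend on the left and the middle contrast on the right. Blue bars to the left are estimates below 0, red bars to the right estimates above 0, and dotted lines mark the shares over all genes with a symbol. The respiratory chain stands highest for the middle contrast, at 29.4%, all of it above 0.

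Early response genes, which cells switch on within minutes of a stimulus, were a case of 1 fish. Of 24 genes, 5 had a positive contrast at an unadjusted p under 0.05 and 1 a negative one, and without MR fish 1 these counts were 1 and 3. The count of 5 was also 3 without LR fish 2 and without HR fish 1, 2, 4 or 6. The median contrast was 0.259 with that fish and -0.38 without it. EGR1, a zinc finger factor of this class, had 49.1 CPM in MR fish 1, and the other MR livers had 0.692 to 2.17 CPM. Its contrast was 1.76 with MR fish 1 and -1.0 without it. DUSP1, a phosphatase that switches MAP kinases off, had contrasts of 1.54 with that fish and -0.36 without it. TNIP2, which restrains NF-kappa B, had contrasts of 2.12 with that fish and -1.16 without it. The list's mean log2 level was 1.57 in MR fish 1, while the MR median was -0.35 and the highest LR and HR fish had 0.39 and 0.82.

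**Figure D5:**
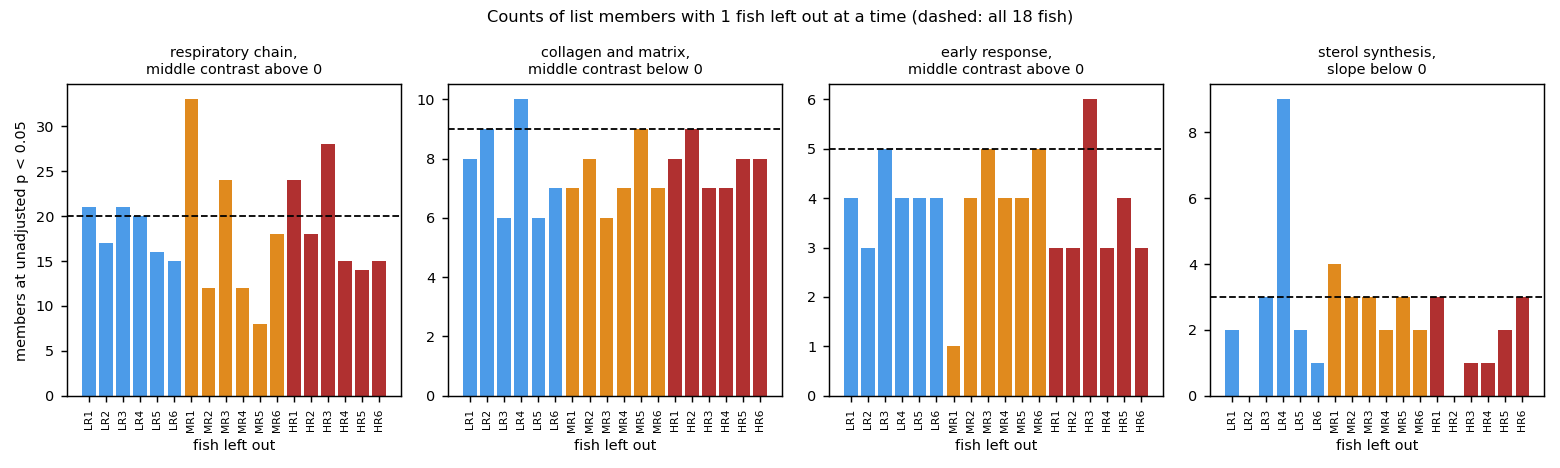
Number of list members with an unadjusted p under 0.05 (vertical axes, from 0) when each of the 18 exposed fish is left out in turn (horizontal axes), for 4 gene lists, with the count from all fish as a dashed line. The respiratory chain count runs from 8 without MR fish 5 up to 33 when MR fish 1 is omitted, and the early response count is lowest, at 1, without MR fish 1.

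The 8 genes with the smallest p on each side of the middle contrast also held PEX11A, which divides peroxisomes, PSMB4, a proteasome subunit, PCBD1, a cofactor recycler, and DERL2, which exports misfolded proteins from the endoplasmic reticulum, with contrasts of 1.08, 1.06, 0.54 and 0.95. On the negative side stood SMARCC1, a subunit of the SWI/SNF chromatin remodeller, at -0.82, KIFAP3, a kinesin adaptor, at -1.37, ABTB1 at -1.1, TMEM106B, a lysosomal membrane protein, at -1.13, and MVP, the main protein of vault particles, at -1.38. In each of the last 5, 4 of 6 MR fish lay below all LR and HR fish. A positive contrast was found in 0 of 10 SMARCC1 and 1 of 5 TMEM106B transcripts. It was found in 3 of 8 KIFAP3, 3 of 6 ABTB1 and 3 of 5 MVP transcripts. The value of MVP was 0.02 when its component was summed. Each gene named here by the smallest p of either contrast kept its sign and an unadjusted p under 0.05 in the 18 fits with 1 fish left out.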

How the data were processed

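Livers of single fish were sequenced, and the deposited count values are raw reads per transcript. The authors aligned each library to a Trinity assembly of these livers (Bowtie2 2.1.0, the best hit per read) and took unnormalized counts per transcript from SAMtools 0.1.18. Near-identical copies of a gene can therefore share reads. The tables also hold the authors' comparison with controls (fold change, mean level, p-value, FDR and call), which was not used. The repeated header line in the HR table (1) was dropped, and 5001 transcripts that stood in only 1 or 2 tables were left out.

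The 60146 transcripts with a read in 6 or more of the 18 exposed fish were fitted in R 4.3.3 with edgeR 4.0.16: TMM normalization, a mean per dose, and the quasi-likelihood F-test, 2-sided, with Benjamini-Hochberg adjustment over all 60146 and calls at FDR < 0.1. The slope weights group means by log10 dose. Displayed CPM values use TMM library sizes over the 18 exposed and 12 control fish. A prior count of 2 enters the log2 scale. The exact permutation tests, 2-sided, ran over all 17153136 assignments of fish to doses for the slope and 18564 for the middle contrast. The code was tested on simulated data. P-values set the differences between doses against the spread between single fish. Fish shared tanks that the labels do not name, so all tests treat tank mates as separate replicates and hold no spread between tanks.

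Gene symbols come from the authors' matches to other species: 34653 transcripts had one, for 8288 genes, and transcripts without a symbol count in no list. A listed gene stands by its transcript with the highest mean log2 CPM. Named genes are, per contrast and sign, the 8 with the smallest p among transcripts with a symbol, 1 per gene, given as not called, and up to 4 members per list with the smallest p. Of the genes this rule names, 1 is not reported here. The deiodinase transcript, and members beyond 4 per list, were named after their values were seen. Members and lists were chosen with earlier results of these data known.

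The alternatives were DESeq2 1.42.0 and its size factors, edgeR's likelihood ratio test (prior df 10), the robust fit, limma-voom (limma 3.58.1), an FDR of 0.05, no filter, more than 1 CPM in at least 6 fish, counts summed per component, replicate number as a block, controls also in the fit, equal dose steps, a straight line, leaving out the most divergent fish of each dose, and each fish in turn. A fit of LR and HR only was chosen after seeing the data. Tables, permutations and plots used Python 3.11.15, numpy 2.4.6, pandas 2.3.3, scipy 1.17.1 and matplotlib 3.10.9.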

Additional observations from a re-analysis of the deposited data

Results flagged for a closer look

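In 24 of 333 groups of 6 fish (7.21%), 1 fish lay far from the other 5 of its dose, by a gap to the nearest fish that took most of the range of the dose (Dixon's criterion). Chance gives about 1 such group in 20. MR fish 1 was that fish 8 times, and MR fish 4 and LR fish 3 were so 3 times each. No cause was tested.

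In MR fish 1 the log2 CPM was 5.85 for the unannotated transcript comp121549_c6_seq11, where the next fish had 0.652, 5.59 for EGR1, 6.58 for the protease MMP19 and 5.48 for TNIP2, each the highest of the dose. The same fish was lowest for MRPL11 (2.38), PSMB4 (-1.34) and the sterol enzyme SQLE (-0.0411), and its mean departure from the median of its dose was 0.816, with the next at 0.56. MR fish 4 was highest for C1QB (3.88) and CD74 (6.91), genes of macrophages, and for the near-absent transcript comp104211_c1_seq1 (-2.21). MR fish 3 was lowest for ALAS2 (3.49), the heme enzyme of red cells.

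LR fish 3 was highest for EGR1 (3.02), ITGA3 (1.46) and OGG1 (0.581). LR fish 5 was highest for DENND2D (-0.113), LR fish 1 for EEF2 (0.369), and LR fish 2 was lowest for the unannotated comp123904_c0_seq2 (-0.239). HR fish 4 was highest for CELA1 (3.84), a pancreatic elastase, where the next fish had -0.705, and its exocrine pancreas markers summed to 58.6 CPM, with the next HR fish at 27.6 CPM. HR fish 6 was highest for COL16A1 (1.13). HR fish 2 was lowest for MVD (-0.55) and NFIL3 (0.716), and HR fish 1 for the glucose transporter SLC2A2 (3.18).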

How the results depend on the processing

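For the dose trend the count of calls was 0 in the quasi-likelihood test and 1 by DESeq2 and by the likelihood ratio test. For the middle dose it was 0, with 6 by DESeq2, 8 by the likelihood ratio test and 2 with controls in the fit. For any dose difference it was 0, with 3 by DESeq2 and 8 by the likelihood ratio test. Every other alternative gave 0 calls, the fit of LR and HR only, chosen after seeing the data, included. With each fish left out in turn calls ran from 0 to 0 in all 3 tests, and unadjusted p under 0.05 was met by 1441 to 2119 transcripts for the trend, 1997 to 2910 for the middle dose and 1580 to 2109 for any difference. Summing per component turned the slope of PCNP to -0.05, that of ITGA3 to 0.02 and the contrast of MVP to 0.02. limma-voom gave -0.11 for EGR1. Without the most divergent fish of each dose DUSP1 had -0.02, EGR1 -0.64 and TNIP2 -0.54, and with each fish left out DUSP1 ran from -0.36 to 1.78, EGR1 from -1.0 to 2.15 and TNIP2 from -1.16 to 2.68. The cause of these differences was not tested, except that MR fish 1 sets the low end of the last 3. Sterol genes with a negative slope at that threshold numbered 3, 1 by limma-voom and 0 with the block; fatty acid synthesis genes with a positive contrast numbered 5, and 3 by limma-voom and by the robust fit; collagen and matrix genes with a negative contrast numbered 9, and 5 without the most divergent fish of each dose.

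With replicate number as a block, 0 transcripts were called in each test, and 1689, 2252 and 1691 had an unadjusted p under 0.05 for the trend, the middle dose and any difference. Same-numbered fish correlated between -0.377 and 0.45, over 0.1 in 10 of 18 pairs, and 4 of 18 fish correlated best with their own number. The labels do not say whether the numbers pair the fish, and these values cannot decide it.

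Depth limits the low transcripts most: COL16A1 rests on 3 to 9 reads per MR fish, PSMD10 on 4 to 22 per LR fish and OGG1 on 1 to 16 per HR fish.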

Other observations

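The other gene lists held few members with an unadjusted p under 0.05 by edgeR, and none passed after adjustment. For the dose trend they included HSPA9, the mitochondrial HSP70, with a slope of -0.14, MGST1, a membrane glutathione transferase, with -0.17, TNFRSF1B, a TNF receptor, with -0.33, the transcript with the symbol ULK2, a kinase of autophagy whose zebrafish match is its relative ulk1b, with 0.34, PSMB2, a proteasome subunit, with 0.10, EEF2, a translation elongation factor, with 0.22, and DIABLO, which releases caspases from their inhibitors, with 0.22. In the mitochondrial ribosome MRPS18A had a slope of 0.17, MRPL32 one of -0.17 and MRPL49 one of -0.27. The interferon and MHC list (14 genes), the iron, copper and zinc list (12), the reproduction and estrogen list (6) and the bile duct markers (6) had 0 such members in either contrast.

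Among such members for the middle dose, HSPD1, the mitochondrial chaperonin, had a contrast of 0.40 and HSPB1, a small heat shock protein, one of -1.12. ACSL1, which activates fatty acids, had 0.67, while ECH1, another gene of the fatty acid oxidation list, had -0.35. By edgeR, an unadjusted p under 0.05 held in 10 of 18 fits with 1 fish left out for ACSL1 and in 15 for ECH1. AHCY, an enzyme of the methionine cycle, had 0.34. MAP1LC3A and LAMP2, which take part in autophagy and in lysosomes, had 0.36 and 0.29. SLC2A2, the main glucose transporter of hepatocytes, had -0.36, and NR1H3, the sterol sensor LXR alpha, 0.59. VWF, the von Willebrand factor of endothelial cells, had -0.96. ALAS2, of red cells, had 0.43. The 3 exocrine pancreas markers had a median contrast of -1.52 and summed to 17.7 to 21.7 CPM in MR livers, against 18.1 to 38.5 CPM in LR livers and 19.1 to 58.6 CPM in HR livers.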
